A study of Mus musculus with 51 samples.

Results

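The SoxC genes Sox4, Sox11 and Sox12 encode the group C proteins of the Sox family of transcription factors. All 3 were found by gene symbol among the 52636 genes of the count table, beside 16 other Sox genes that served for comparison. SoxC proteins bind the minor groove of DNA through a high-mobility-group (HMG) box, bend the helix, and activate transcription through a domain at their carboxyl end. They are known for overlapping roles in progenitor cells of the embryo, among them neural, cardiac and mesenchymal progenitors, and often act next to POU-domain factors. In adult epithelia Sox4 is known from stem and progenitor cells, from the hair follicle and from carcinomas, whereas Sox11 is mostly described as an embryonic gene.

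The series measured total RNA of sorted mouse cells in 51 libraries of 14 groups. SmoM2 is a mutant Smoothened that signals without Hedgehog ligand, and its genotype is written with a Krt5 prefix, Krt5 being a keratin of basal squamous cells. Sox9cKO (n = 4) were EpCAM-high oesophageal cells of Krt5-SmoM2-Sox9fl/fl mice, in which Sox9 is floxed, and SmoM2 (n = 6) were EpCAM-high oesophageal cells of Krt5-SmoM2 mice of the CD1 strain. K8YFP+ and K8YFP- (n = 3 each) were EpCAM-high oesophageal cells of Krt5-SmoM2-Krt8YFP mice of mixed background, sorted with and without YFP from the gene of the simple-epithelial keratin Krt8. The time series held Krt5-SmoM2 oesophageal cells labelled 7w and 3w, in EpCAM-high and EpCAM-low gates (n = 4 in each of the 4 groups), and the labels do not say from when the weeks were counted. Krt8YFP mice without SmoM2 gave E13.5 embryonic oesophagus sorted on EpCAM and YFP (Embryo, n = 2), the columnar part of the squamocolumnar junction sorted on high EpCAM and YFP (Junction columnar, n = 4), its squamous part sorted on high EpCAM without YFP (Junction squamous, n = 3), and gut and stomach cells sorted on YFP (n = 2 each). WT (n = 6) were EpCAM-low oesophageal cells of wild type CD1 mice. The labels give no age for adult mice, no strain for the time series, Sox9cKO and Junction squamous, and do not say whether libraries of a group came from separate mice, so p-values below measure the spread between libraries.

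Library totals lay between 1606571 and 12262365 counts, with the lowest in K8YFP+ replicate 2. SmoM2 and WT differ in genotype and in EpCAM gate together, and Embryo, junction, gut and stomach differ from WT in genotype and gate, so that these cannot be told apart. WT replicates 3 and 5, and 4 and 6, differed from each other less than the other WT pairs did (chi-square over its degrees of freedom was 1.92 and 2.47 for these, and 11.0 to 35.6 for the rest), and may stand for fewer than 6 samples. Squamous markers summed to 7748 to 29010 CPM (a count scaled to a fixed library total) in the SmoM2 groups of the time series and the Krt8YFP sort, 17775 to 27494 CPM in WT and 1112 and 1850 CPM in Embryo. Krt8 averaged 21.8 ± 15.8 CPM in K8YFP+ and 1.404 ± 1.67 CPM in K8YFP- (SD, n = 3 each), and 770 ± 341 CPM in Junction columnar (SD, n = 4). Junction columnar also carried enteroendocrine markers at 1881 to 3975 CPM and tuft cell markers at 2390 to 4717 CPM in sum. In bulk libraries such as these, fewer cells of a kind and less RNA per cell cannot be told apart.

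Sequences of the HMG box show how close the 3 genes are. A stretch of 75 bases of the box is given for each, starting at the codons for the amino acids RPMNAF. It is read on the gene's own (minus) strand of GRCm38, with capitals for the 62 bases that are the same in all 3.
Sox4, chr13:28952767-28952841: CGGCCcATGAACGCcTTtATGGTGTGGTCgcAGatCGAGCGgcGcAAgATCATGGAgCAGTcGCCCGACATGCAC
Sox11, chr12:27342184-27342258: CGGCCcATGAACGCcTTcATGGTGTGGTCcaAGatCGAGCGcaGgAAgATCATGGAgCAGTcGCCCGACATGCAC
Sox12, chr2:152397501-152397575: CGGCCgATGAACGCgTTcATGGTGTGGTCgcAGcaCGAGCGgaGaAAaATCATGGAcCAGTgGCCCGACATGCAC
Over a fixed window of 210 bases from the same start, Sox4 and Sox11 were 91.0% identical, Sox4 and Sox12 85.7%, and Sox11 and Sox12 84.8%. Of 16 other Sox genes, 15 were compared, those with the amino acids RPMNAF in their longest coding transcript. Among these 15, Sox9 came closest to each SoxC gene, at 73.8% for Sox4, 75.2% for Sox11 and 72.4% for Sox12. The longest run of identical bases shared by 2 whole transcripts was 48 bases for Sox4 with Sox11, 33 for Sox4 with Sox12 and 20 for Sox11 with Sox12. The 6 SmoM2 libraries, with 2554 to 4969 counts of Sox4 each, held 0 or 1 counts of Sox11.

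Annotation of GRCm38 (GENCODE M21) places Sox4 (ENSMUSG00000076431) on the minus strand of chromosome 13, at chr13:28948919-28953713, as 1 exon of 4795 bases. Sox11 (ENSMUSG00000063632) is 1 exon of 8311 bases on the minus strand at chr12:27334264-27342574. Sox12 (ENSMUSG00000051817) lies on the minus strand at chr2:152393611-152398063, with exons covering all 4453 bases. Sox4 alone of the 3 overlaps another gene, the long intergenic RNA Gm26735 (ENSMUSG00000097461) on the opposite strand, at chr13:28943048-28951671, which has 2616 of its 2649 exon bases inside the Sox4 exon.

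Gm26735 received 0.713 counts for each Sox4 count over all libraries, and between 0.535 and 0.810 in single libraries, with a median of 0.728. Both counts varied together over the whole range of levels, as the plot of both counts shows. The strand setting of the counting is not given in the sources used here, so that reads of Sox4 and Gm26735 cannot be told apart, and Sox4 values below are those of the locus as counted. Among 100 opposite-strand RNAs that lie at least 90% within the exons of a coding gene, the median ratio was 0.142, 62 of the 100 were above 0.1, and the ratio for Sox4 ranked at position 7.

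**Figure D1:**
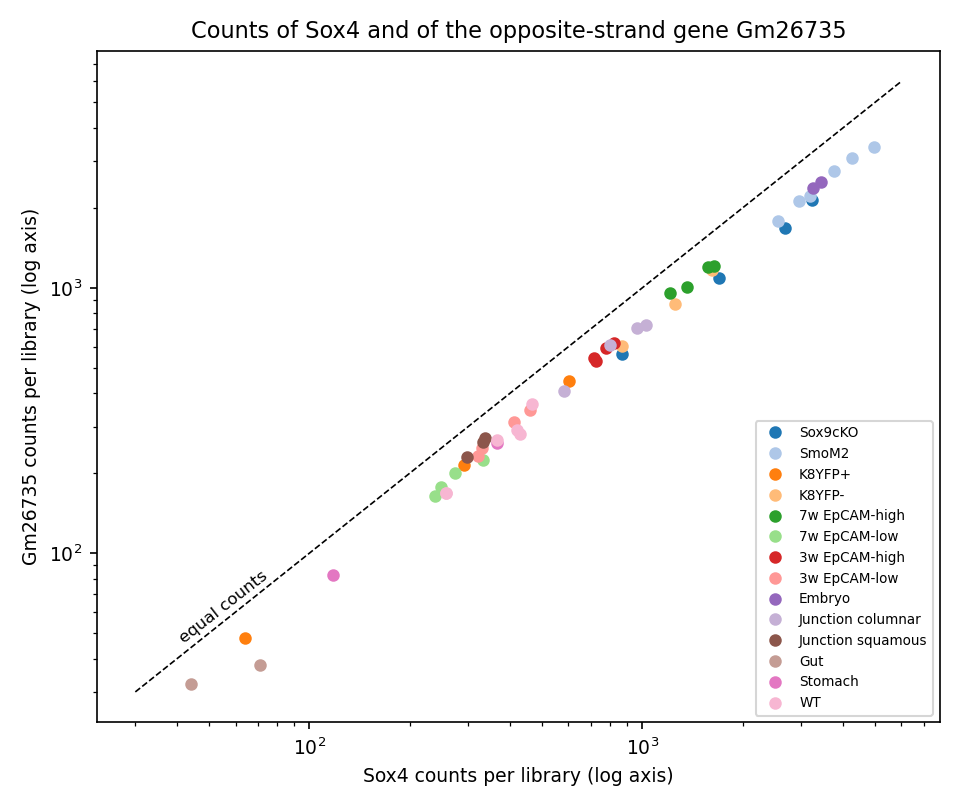
Counts of Gm26735 (vertical, log axis) against counts of Sox4 (horizontal, log axis), with 1 point per library, coloured by group, and a dashed line for equal counts. All 51 libraries lie below the line in a narrow band, with ratios from 0.535 to 0.810.

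Sox4 had counts in every library, at 15.7 to 494 CPM. It averaged 349 ± 77.6 CPM in SmoM2 (SD, n = 6) and 307 ± 12.9 CPM in Embryo (SD, n = 2), the top of the order. Sox9cKO followed at 228 ± 105 CPM (SD, n = 4) and 7w EpCAM-high at 200 ± 21.2 CPM (SD, n = 4). The ranges of these 4 groups overlapped from each neighbour to the next. Junction columnar averaged 150 ± 12.6 CPM (SD, n = 4), below 7w EpCAM-high with no overlap, K8YFP- 140 ± 48.2 CPM (SD, n = 3) and 3w EpCAM-high 104 ± 8.16 CPM (SD, n = 4). The separation of Junction columnar from 7w EpCAM-high held for these neighbours only, since K8YFP- reached 189 CPM and Sox9cKO fell to 114 CPM. Next, with no overlap with 3w EpCAM-high, came K8YFP+ at 68.7 ± 25.9 CPM (SD, n = 3) and 3w EpCAM-low at 54.9 ± 6.05 CPM (SD, n = 4). Then followed Junction squamous at 48.6 ± 3.16 CPM (SD, n = 3), 7w EpCAM-low at 44.3 ± 2.23 CPM (SD, n = 4), stomach at 42.4 ± 7.71 CPM (SD, n = 2) and WT at 41.2 ± 10.4 CPM (SD, n = 6). Neighbours in this lower stretch overlapped in range. Gut was lowest, at 17.6 ± 2.73 CPM (SD, n = 2), with no overlap with WT. The order and its overlaps rest on library totals and were not examined with TMM scaling, which the fold changes below use. Library totals in place of TMM shifted the median log2 fold of all genes by -0.38 in K8YFP+ against K8YFP-. In Embryo against WT the shift was 0.52.

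Sox11 was high in Embryo and near 0 elsewhere. The Embryo libraries held 6714 and 5389 counts, or 620 and 494 CPM. The other 49 libraries held at most 20 counts each. Junction squamous came next, with 12, 4 and 20 counts (1.88, 0.615 and 2.85 CPM), followed by Junction columnar with 6, 11, 2 and 6 counts (0.922, 1.87, 0.467 and 1.08 CPM). K8YFP- held 2, 10 and 0 counts, so that 1 library carried nearly all of them. In each of Sox9cKO, SmoM2, K8YFP+, 7w EpCAM-high, 7w EpCAM-low, gut, stomach and WT there were 1 or 2 counts over all libraries together, in 3w EpCAM-low there were 4, and in 3w EpCAM-high there were 0. A group with 0 counts allows up to 3 counts over its total, which is 0.103 CPM in 3w EpCAM-high, and 0.0484 CPM in SmoM2 marks the same floor. Such floors cover counting error only.

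Sox12 was low in all groups but one, and the order of its lower groups is not resolved. Embryo held 23.0 and 20.9 CPM, from 249 and 228 counts. Sox9cKO held 6.97, 5.58, 3.68 and 7.86 CPM, next in order with a mean of 6.02 ± 1.82 CPM (SD, n = 4), and did not overlap with Embryo. All further neighbours overlapped, from K8YFP- at 4.00 ± 1.92 CPM (SD, n = 3) and SmoM2 at 3.70 ± 0.445 CPM (SD, n = 6) to Junction squamous at 1.22 ± 0.342 CPM (SD, n = 3) and gut at 1.03 ± 1.07 CPM (SD, n = 2). Sox12 rested on 1 to 77 counts per library outside the embryo, which limits the precision of its folds.

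**Figure D2:**
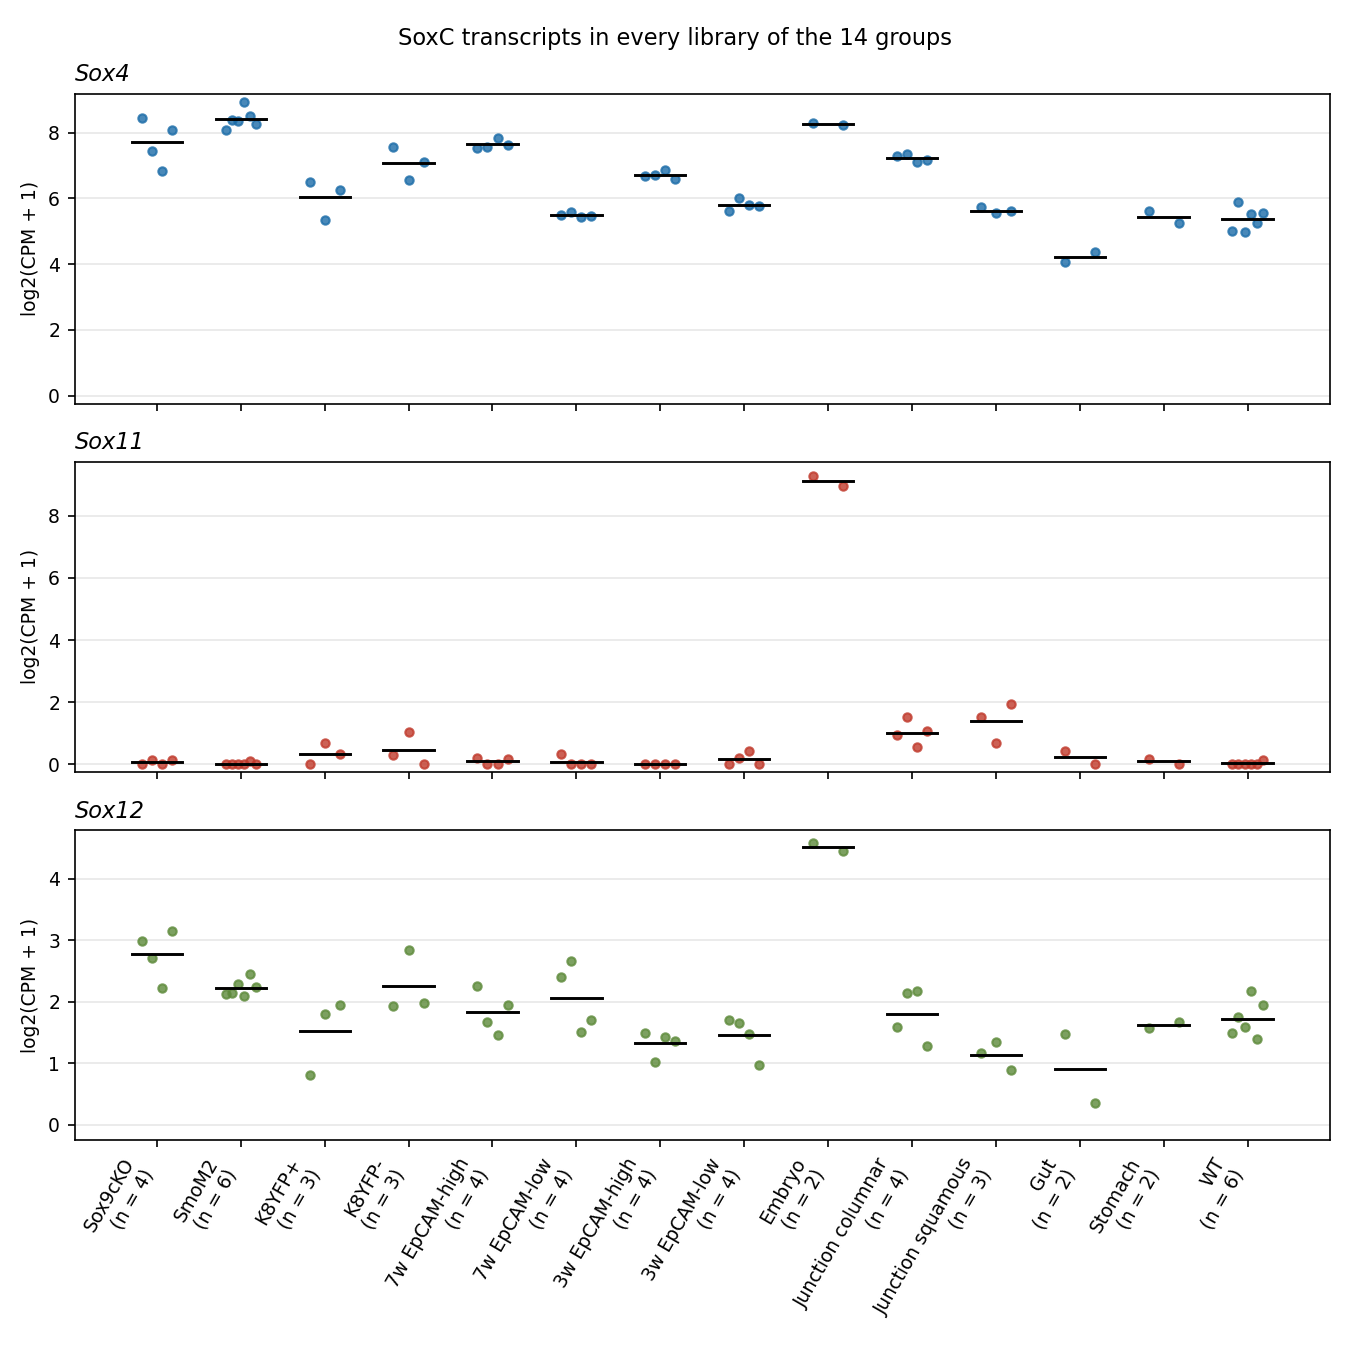
Levels of Sox4, Sox11 and Sox12 as log2(CPM + 1) on the vertical axes, which differ in scale, for all 51 libraries in the 14 groups on the horizontal axis; points are libraries and bars are group means of the plotted values. Sox4 is present throughout and highest in SmoM2 and Embryo, Sox11 stands out in Embryo at 620 and 494 CPM, and Sox12 is highest in Embryo at 23.0 and 20.9 CPM.

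The make-up of the SoxC transcripts set the embryo apart from the other groups. Levels of different genes were compared as CPM per kilobase of exon, and the share of each gene in the sum of the 3 was taken per library. In Embryo, Sox4 made up 47.3 ± 2.81%, Sox11 49.1 ± 2.93% and Sox12 3.63 ± 0.121% of the sum (SD, n = 2). In SmoM2, Sox4 made up 98.8 ± 0.240%, Sox11 0.00223 ± 0.00547% and Sox12 1.17 ± 0.238% (SD, n = 6). In WT, Sox4 made up 94.1 ± 1.37%, Sox11 0.0210 ± 0.0514% and Sox12 5.90 ± 1.36% (SD, n = 6). The mean share of Sox4 lay between 92.4% and 98.8% in the 13 groups other than Embryo. By library total, SmoM2 cells had a Sox4 level whose range took in that of Embryo, with 1 Sox11 count over 6 libraries. The summed SoxC level was 73.7 ± 16.2 CPM per kilobase in SmoM2 (SD, n = 6) and 136 ± 13.8 CPM per kilobase in Embryo (SD, n = 2), with 9.13 ± 2.26 CPM per kilobase in WT (SD, n = 6). Without division by length, the Embryo shares were 34.8% for Sox4, 62.7% for Sox11 and 2.48% for Sox12.

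**Figure D3:**
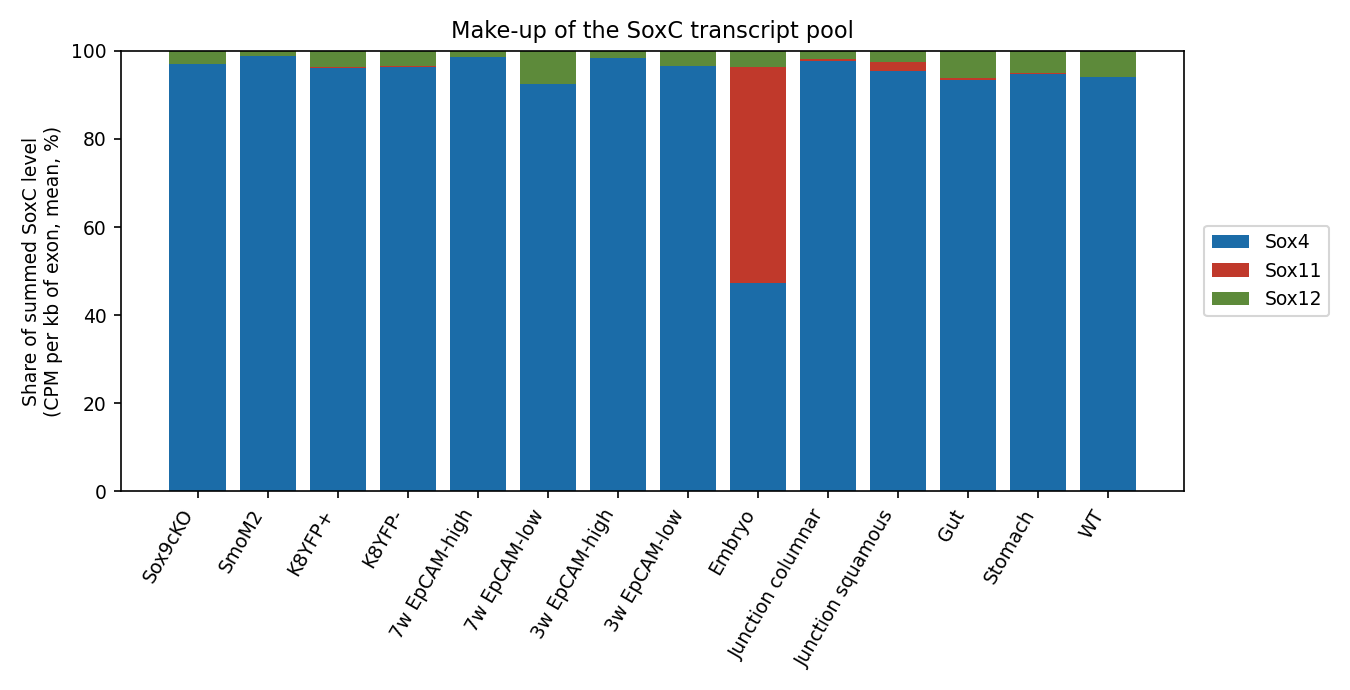
Mean share (vertical axis, percent) of Sox4, Sox11 and Sox12 in their summed level per kilobase of exon, in the 14 groups on the horizontal axis. Sox4 fills 92.4% to 98.8% of every bar except that of Embryo, where Sox11 takes 49.1%.

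Fold changes are on a log2 scale with their standard errors (SE), from edgeR's quasi-likelihood test with TMM scaling of the counts, and passing means an adjusted p (Benjamini-Hochberg, every tested gene included) under 0.05. Over 22 comparisons Sox4 was tested in 22 and passed in 17, being higher in 14 and lower in 3. Sox12 was tested in 22 and passed in 6, higher in 4 and lower in 2. Sox11 passed the filter on low counts in 10 and the test in 4. The filter looked at all libraries of a fit together, and in 4 of these 10 (Sox9cKO against WT, K8YFP+ against stomach, K8YFP+ against gut and gut against stomach) the groups compared held 1 or 2 Sox11 counts each, too few for a fold, and none of these passed. Comparisons that share a group are not independent of each other, and WT enters 8 of them.

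**Figure D4:**
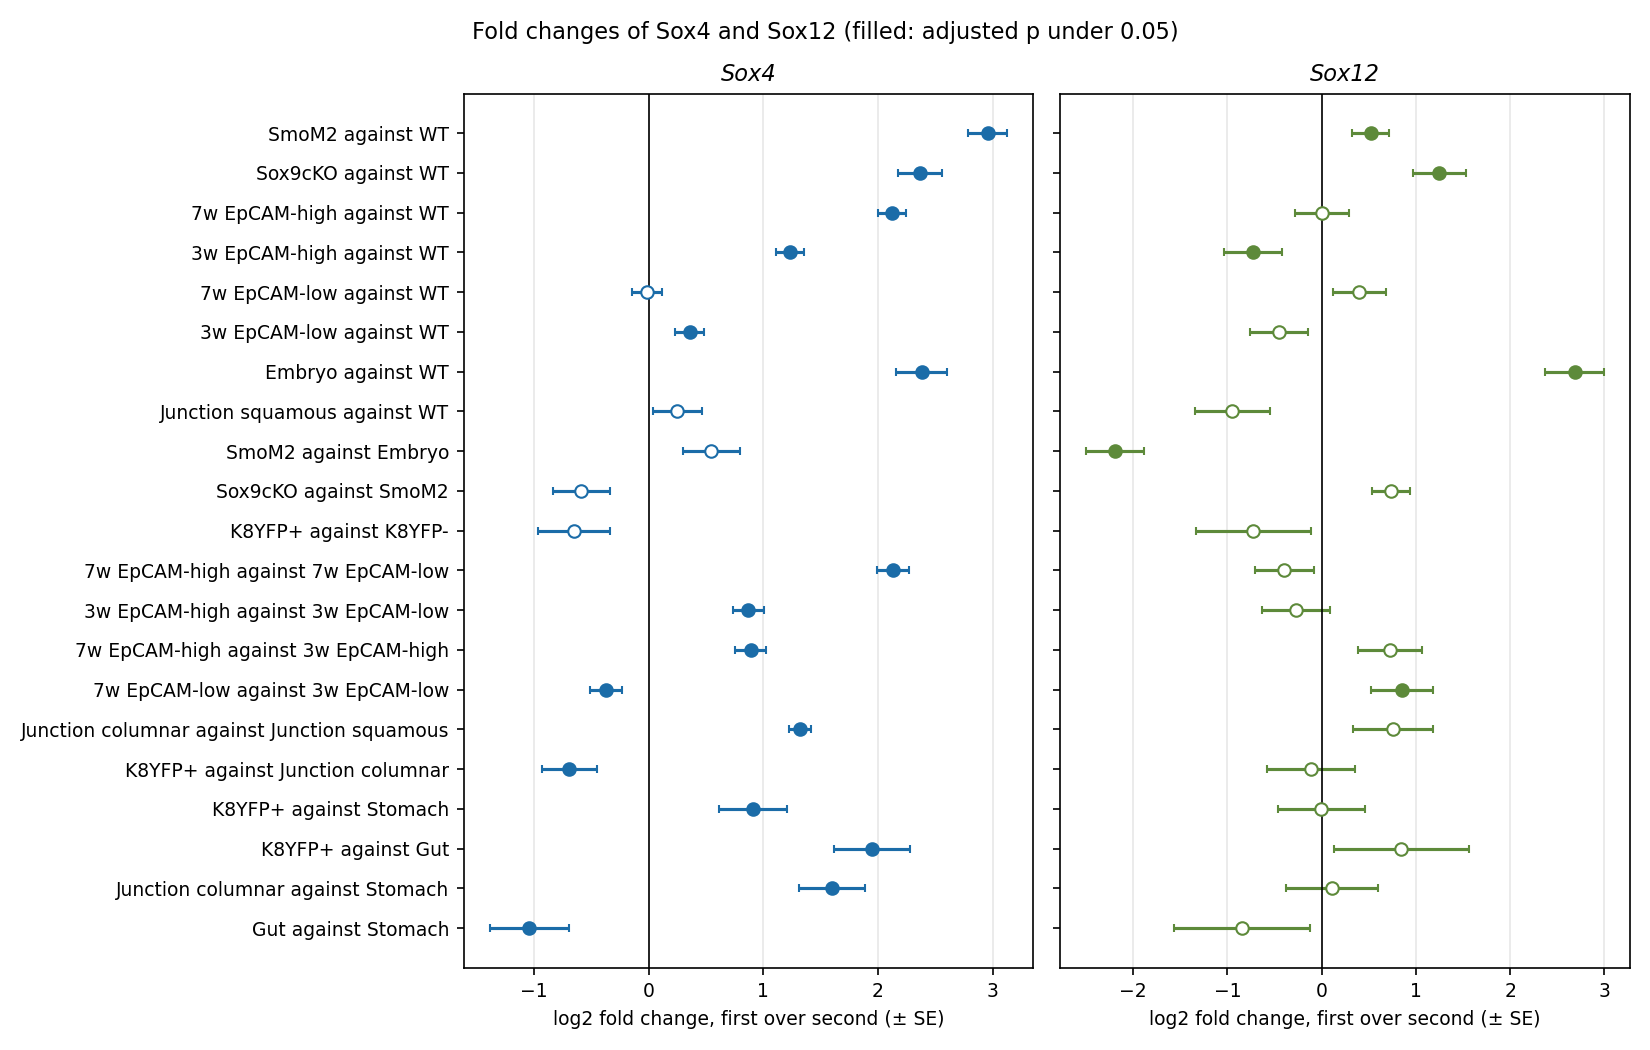
Log2 fold change of Sox4 (left) and Sox12 (right) in 21 comparisons, first group over second on the horizontal axes with SE bars; filled points passed at an adjusted p under 0.05. Sox4 lies between 1.23 and 2.95 for the EpCAM-high SmoM2, Sox9cKO and Embryo groups against WT, while Sox12 lies at 2.68 for Embryo against WT and between -0.95 and 1.25 in the other comparisons with WT.

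Sox4 was high in the EpCAM-high SmoM2 cells, set against EpCAM-low WT cells of the oesophagus. The 6 SmoM2 libraries held 269 to 494 CPM with a median of 331, against 30.3 to 57.8 CPM with a median of 40.9 in the 6 WT libraries, so that the groups did not overlap. Sox4 was 7.75-fold higher in SmoM2 than in WT (log2 fold 2.95 ± 0.17 SE, edgeR quasi-likelihood adjusted p = 3.62e-09). The SmoM2 comparison is broad, since 26.2% of the 16224 genes tested were higher and 23.3% were lower. Sox12 held 3.28 to 4.47 CPM with a median of 3.60 in SmoM2, against 1.62 to 3.53 CPM with a median of 2.18 in WT, so that the groups overlapped. Its difference was small (log2 fold 0.52 ± 0.20 SE, edgeR adjusted p = 0.0397), and it no longer passed with WT pairs summed (0.51, edgeR adjusted p = 0.0699) or without any of WT replicates 1, 2, 3 and 5 and SmoM2 replicates 3, 5 and 6. Sox11, with 1 count in SmoM2 and 1 in WT, was too low for a fold.

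Of 10 genes reported elsewhere as SoxC targets, 9 were tested in SmoM2 against WT. Of these 5 were higher and 0 lower, beside the 26.2% of all genes that were higher, and the median log2 fold was 0.28, beside 0.01 over all genes. Tead2, a partner of the Hippo pathway's effectors, averaged 5.69 ± 1.44 CPM in SmoM2 and 1.06 ± 0.306 CPM in WT (SD, n = 6 each), a log2 fold of 2.28 ± 0.23 (SE, edgeR adjusted p = 1.34e-06). Mex3a, an RNA-binding protein of progenitor cells, averaged 11.2 ± 4.12 CPM in SmoM2 and 2.60 ± 0.610 CPM in WT (log2 fold 1.98 ± 0.25 SE, edgeR adjusted p = 1.18e-05). Marcksl1, an actin-regulating membrane protein, averaged 37.8 ± 10.2 CPM in SmoM2 and 15.7 ± 1.963 CPM in WT (log2 fold 1.14 ± 0.17 SE, edgeR adjusted p = 5.12e-05). None of these is a specific readout of SoxC proteins, and the list was chosen with results of these data known.

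Of 16 other Sox genes, 7 were tested in SmoM2 against WT, 2 were higher and 1 lower, with a median log2 fold of 0.03. Sox21, a Sox factor of group B, averaged 244 ± 51.5 CPM in SmoM2 and 64.6 ± 8.46 CPM in WT (log2 fold 1.78 ± 0.13 SE, edgeR adjusted p = 6.86e-08). Sox2, a factor that foregut epithelium needs to become squamous, averaged 99.8 ± 36.3 CPM in SmoM2 and 30.1 ± 7.47 CPM in WT (log2 fold 1.59 ± 0.22 SE, edgeR adjusted p = 2.83e-05). Sox6 was lower, at a log2 fold of -0.27 ± 0.09 (SE, edgeR adjusted p = 0.0257). Sox18, too low to be tested, averaged 2.20 ± 1.81 CPM in SmoM2 and 0.140 ± 0.184 CPM in WT (SD, n = 6 each). With no filter on low counts, or with DESeq2, 5 of the other Sox genes passed rather than 3. Of 7 POU factors, 3 were tested, and Pou3f1 (1.4998 ± 0.27 SE, edgeR adjusted p = 0.000308) and Pou2f1 (0.31 ± 0.09 SE, edgeR adjusted p = 0.00698) were higher in SmoM2. Of 12 embryonic and fetal genes, 3 were tested, 0 were higher and 2 lower in SmoM2, with a median log2 fold of -1.75. H19, an imprinted fetal RNA, averaged 23.0 ± 9.77 CPM in SmoM2 and 310 ± 207 CPM in WT (log2 fold -3.86 ± 0.41 SE, edgeR adjusted p = 2.51e-06).

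Markers of other cell types stood beside the Sox4 difference as follows. The summed fibroblast list was 339 to 615 CPM in SmoM2 and 68.1 to 140 CPM in WT, of which Fbln1 alone gave 426 CPM in SmoM2 and 44.4 CPM in WT on average. The fibroblast collagen Col1a1 averaged 3.46 CPM in SmoM2 and 2.76 CPM in WT. Immune markers summed to 14.01 to 25.2 CPM in SmoM2 and 9.31 to 17.3 CPM in WT, and no fibroblast or immune marker was at 0 in either group. Their part in the Sox4 result was not tested.

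**Figure D5:**
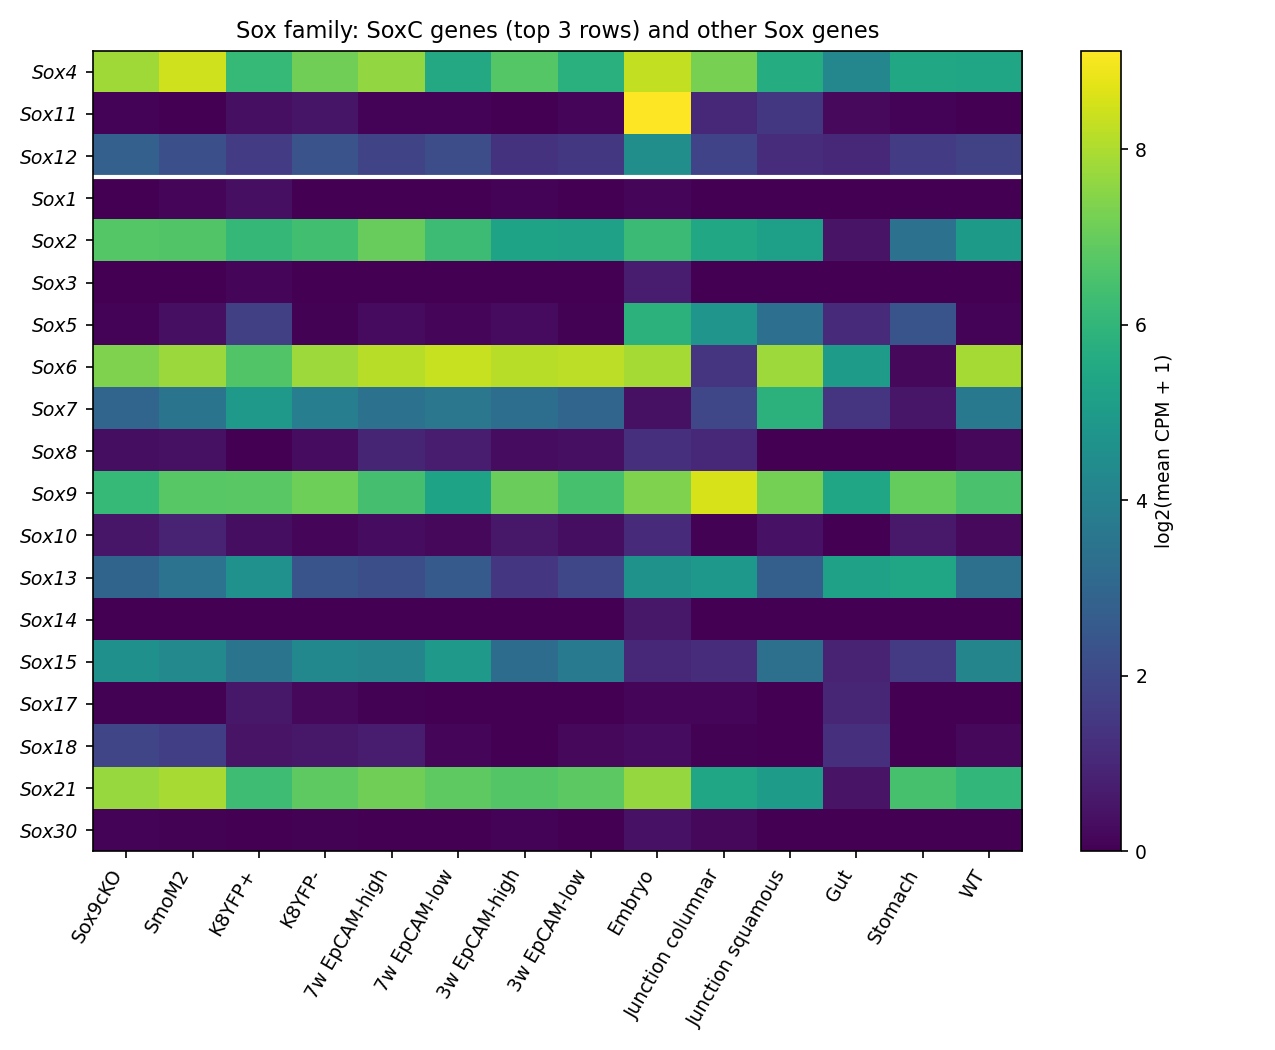
Mean level of the 3 SoxC genes (top rows) and 16 other Sox genes (rows) in the 14 groups (columns), coloured by log2(mean CPM + 1); colours compare groups within a row, since they are not divided by gene length. The Sox4 row is brightest in SmoM2 and Embryo, the Sox11 row has 1 bright cell, in Embryo, and Sox21 and Sox2 are also brighter in SmoM2 than in WT.

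In the time series Sox4 differed by gate and by time. At 7w, Sox4 held 183, 188, 230 and 197 CPM in EpCAM-high cells, against 44.6, 47.2, 42.0 and 43.4 CPM in EpCAM-low cells of the same label. The gates did not overlap, and Sox4 was 4.38-fold higher in EpCAM-high cells (log2 fold 2.13 ± 0.14 SE, edgeR adjusted p = 2.20e-11), where 15.5% of all genes were higher and 16.8% lower. At 3w, Sox4 held 101, 105, 115 and 95.2 CPM in EpCAM-high cells, against 48.6, 63.1, 54.9 and 53.1 CPM in EpCAM-low cells. These did not overlap either, at a log2 fold of 0.87 ± 0.14 (SE, edgeR adjusted p = 6.90e-05) and a background of 7.35% of genes higher. The gate difference was larger at 7w than at 3w by 1.26 ± 0.19 on the log2 scale (SE, edgeR interaction term, adjusted p = 0.000584), where 1.55% of genes passed in that direction. In one fit of all 14 groups the term was 1.26 and did not pass (edgeR adjusted p = 0.0604).

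In EpCAM-high cells Sox4 was higher at 7w than at 3w (log2 fold 0.89 ± 0.13 SE, edgeR adjusted p = 1.52e-05; 22% of genes were higher). In EpCAM-low cells it was lower at 7w than at 3w by less (log2 fold -0.37 ± 0.14 SE, edgeR adjusted p = 0.0406; 18.4% of genes were lower), and this call was lost when any of 7 of the 8 libraries was left out. Set against WT, Sox4 was higher in 7w EpCAM-high cells (2.12 ± 0.12 SE, edgeR adjusted p = 5.83e-13; 27.7% of genes were higher) and in 3w EpCAM-high cells (1.23 ± 0.12 SE, edgeR adjusted p = 1.19e-08; 28.2% of genes were higher). In 3w EpCAM-low cells it was barely higher than in WT (0.36 ± 0.13 SE, edgeR adjusted p = 0.0219; 23.1% of genes were higher), with overlapping libraries, and it no longer passed with WT pairs summed (0.32, edgeR adjusted p = 0.0580) or without 3w EpCAM-low replicate 2 or WT replicate 3. In 7w EpCAM-low cells its fold was -0.01 ± 0.13 (SE, edgeR adjusted p = 0.955; 40.4% of genes passed in either direction). The time-series labels give no strain, so that strain cannot be told apart from genotype in the comparisons with WT.

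Sox12 passed no test between the gates. It held 3.79, 2.20, 1.76 and 2.88 CPM in 7w EpCAM-high cells, against 4.29, 5.33, 1.84 and 2.27 CPM in 7w EpCAM-low cells (log2 fold -0.40 ± 0.31 SE, edgeR adjusted p = 0.359). At 3w it held 1.83, 1.03, 1.68 and 1.58 CPM in EpCAM-high cells, against 2.28, 2.14, 1.79 and 0.969 CPM in EpCAM-low cells (-0.28 ± 0.36 SE, edgeR adjusted p = 0.681). Libraries of the gates overlapped at both times. In EpCAM-low cells Sox12 was higher at 7w than at 3w (0.85 ± 0.33 SE, edgeR adjusted p = 0.0459; 19.5% of genes were higher), and in 3w EpCAM-high cells it was lower than in WT (-0.73 ± 0.31 SE, edgeR adjusted p = 0.0483; 30.7% of genes were lower). Both of these calls were lost under DESeq2 and when single libraries were left out. Sox11 stayed at 4 counts or fewer in each of the 4 groups and gave no fold.

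Of the 9 reported SoxC targets tested in the time series, 6 were higher and 0 lower in EpCAM-high cells at 7w, where 15.5% of all genes were higher, with a median log2 fold of 0.82 beside -0.02 over all genes. At 3w 1 was higher and 0 lower, where 7.35% of all genes were higher, with a median of 0.26 beside -0.01. The difference between the times passed for 1 of the 9, Sema3c. Sema3c, a secreted guidance protein, averaged 51.8 ± 7.84 CPM in 7w EpCAM-high cells and 22.3 ± 2.80 CPM in 7w EpCAM-low cells (log2 fold 1.18 ± 0.14 SE, edgeR adjusted p = 3.54e-07). At 3w it averaged 79.0 ± 5.20 CPM in EpCAM-high cells and 90.3 ± 8.19 CPM in EpCAM-low cells, a difference of the other sign that did not pass (-0.25 ± 0.13 SE, edgeR adjusted p = 0.212). Its level was lower at 7w than at 3w in both gates, by more in EpCAM-low cells (interaction 1.42 ± 0.19 SE, edgeR adjusted p = 0.000122). Marcksl1 (0.82 ± 0.11 SE, edgeR adjusted p = 3.35e-06) and Dicer1 (0.43 ± 0.08 SE, edgeR adjusted p = 0.000293) were higher in 7w EpCAM-high cells, and Mex3a was higher in 3w EpCAM-high cells (1.20 ± 0.26 SE, edgeR adjusted p = 0.00176). Of 7 other Sox genes tested at 7w, 2 were higher and 1 lower: Sox9 (1.12 ± 0.21 SE, edgeR adjusted p = 0.000230) and Sox2 (0.72 ± 0.16 SE, edgeR adjusted p = 0.000901) were higher and Sox15 lower (-0.87 ± 0.14 SE, edgeR adjusted p = 4.52e-05). The summed fibroblast list was 349 to 413 CPM in 7w EpCAM-high cells and 78.0 to 106 CPM in 7w EpCAM-low cells, with Fbln1 again giving most of it, and its part in the Sox4 result was not tested.

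Among EpCAM-high SmoM2 cells, those with Krt8-YFP held less Sox4 than those without in every number-matched pair. K8YFP+ libraries held 90.1, 39.8 and 76.3 CPM, against 189, 93.2 and 137 CPM in K8YFP- libraries of the same replicate numbers. The groups did not overlap, yet the fit of the 6 libraries did not pass (log2 fold -0.65 ± 0.31 SE, edgeR adjusted p = 0.175), where 13.1% of genes were higher and 6.83% lower. Libraries of equal number deviated together over all genes (residual correlations of 0.409, 0.291 and 0.363), and with the replicate number as a block Sox4 was lower in K8YFP+ cells (-0.66 ± 0.12 SE, edgeR adjusted p = 0.00684). With library totals alone as the scale, the fold was -1.002 (edgeR adjusted p = 0.0454), and the median over all genes shifted by -0.38 on the log2 scale.

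Sox12 held 0.746, 2.49 and 2.88 CPM in K8YFP+ libraries, against 2.81, 6.21 and 2.96 CPM in K8YFP- libraries, overlapping and without a call (log2 fold -0.72 ± 0.61 SE, edgeR adjusted p = 0.426). Sox11, at 2 counts in K8YFP+ and 12 in K8YFP-, gave p = 0.90 in an exact two-sided permutation test of log2(CPM + 1), where 0.10 is the smallest p that 3 against 3 libraries can give, and 1.00 after Benjamini-Hochberg adjustment over 3 such tests. Of 9 reported SoxC targets tested, 0 were higher and 3 lower in K8YFP+ cells, with a median log2 fold of -0.75 beside -0.03 over all genes. These were Fscn1, an actin-bundling protein (-1.10 ± 0.27 SE, edgeR adjusted p = 0.0259), the histone methyltransferase Ezh2 (-0.84 ± 0.24 SE, edgeR adjusted p = 0.0447) and Stmn1, a microtubule regulator (-0.78 ± 0.23 SE, edgeR adjusted p = 0.0473). Of 7 cell-cycle genes 5 were lower as well, at 180 to 444 CPM in sum in K8YFP+ and 875 to 991 CPM in K8YFP-. Col1a1 averaged 48.3 CPM in K8YFP+ and 5.25 CPM in K8YFP-, and muscle markers summed to 6.55 to 218 CPM in K8YFP+ and 4.57 to 16.5 CPM in K8YFP-. Endothelial markers summed to 23.0 to 111 CPM in K8YFP+ and 10.7 to 16.8 CPM in K8YFP-, none of the 5 being at 0 in a whole group. Of these Pecam1 was the one tested and was higher in K8YFP+ (log2 fold 2.12 ± 0.47 SE, edgeR adjusted p = 0.0195), and Cdh5 averaged 8.20 CPM in K8YFP+, with 22.4 CPM in the highest library, and 0.851 CPM in K8YFP-. Within K8YFP+, the muscle sum and all 5 endothelial markers were highest in replicate 2. That library also had the lowest total and the lowest Sox4 of the K8YFP+ libraries, at 39.8 CPM. Of 7 fibroblast markers tested, 4 were higher and 0 lower in K8YFP+. The part of these in the Sox4 values was not tested.

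In SmoM2 cells of Sox9fl/fl mice, Sox9 itself averaged 67.6 ± 39.7 CPM (SD, n = 4) beside 107 ± 44.7 CPM in SmoM2 (SD, n = 6), a difference that did not pass (log2 fold -0.62 ± 0.36 SE, edgeR adjusted p = 0.361). Its counts therefore do not mark the deletion, and the labels do not give the deleted part. Sox4 held 351, 172, 114 and 273 CPM in Sox9cKO, against 269 to 494 CPM with a median of 331 in SmoM2. The ranges overlapped, and no change passed (log2 fold -0.59 ± 0.25 SE, edgeR adjusted p = 0.217), in a comparison where 2.66% of genes passed in either direction and 1.48% were lower. Sox12 leaned the other way, with a log2 fold of 0.74 ± 0.20 (SE, edgeR adjusted p = 0.0725), and passed under DESeq2 (0.76, DESeq2 adjusted p = 0.0195) and without Sox9cKO replicate 2 or replicate 3 (edgeR adjusted p = 0.0454 and 0.0448). Sox11 had 2 counts in Sox9cKO and 1 in SmoM2 and was too low for a fold.

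Against WT, Sox9cKO cells kept high Sox4, with no overlap between the libraries (log2 fold 2.37 ± 0.19 SE, edgeR adjusted p = 1.25e-13; 23.1% of genes were higher). Sox12 was higher in Sox9cKO than in WT, again with no overlap (1.25 ± 0.28 SE, edgeR adjusted p = 0.000376). Of 9 reported SoxC targets, 0 were higher and 1 lower in Sox9cKO against SmoM2, Fscn1, at 63.9 ± 7.74 CPM in Sox9cKO (SD, n = 4) and 122 ± 26.1 CPM in SmoM2 (SD, n = 6; log2 fold -0.89 ± 0.17 SE, edgeR adjusted p = 0.0164).

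In the embryo, all 3 SoxC genes were high against adult WT oesophagus, where 36.1% of 22370 genes were higher and 27.8% lower. Sox4 held 317 and 298 CPM in Embryo, against 30.3 to 57.8 CPM with a median of 40.9 in WT (log2 fold 2.38 ± 0.22 SE, edgeR adjusted p = 1.48e-12). Sox12 held 23.0 and 20.9 CPM in Embryo, against 1.62 to 3.53 CPM with a median of 2.18 in WT (2.68 ± 0.31 SE, edgeR adjusted p = 5.60e-10). Sox11, with 12103 counts in the 2 Embryo libraries and 1 in the 6 WT libraries (edgeR adjusted p = 5.79e-26), stood at a ratio of 29686, and the exact 95% interval from counting error alone runs from 5327 to 1172630. For all 3 genes the libraries of Embryo and WT did not overlap, and the share of all genes without overlap was not counted. By TMM effective library size the Embryo means were 233 CPM for Sox4, 422 CPM for Sox11 and 16.6 CPM for Sox12, and the median log2 fold over all genes was 0.16.

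In Embryo against WT the lists were as follows. Of 10 reported targets, 7 were higher and 1 lower, with a median log2 fold of 1.43. Tead2 averaged 81.2 ± 1.61 CPM in Embryo (SD, n = 2) and 1.06 ± 0.306 CPM in WT (SD, n = 6; log2 fold 5.71 ± 0.28 SE, edgeR adjusted p = 2.45e-21). Mex3a averaged 87.5 ± 8.95 CPM in Embryo and 2.60 ± 0.610 CPM in WT (4.54 ± 0.30 SE, edgeR adjusted p = 3.25e-17), and Marcksl1 182 ± 9.32 CPM in Embryo and 15.7 ± 1.963 CPM in WT (3.01 ± 0.21 SE, edgeR adjusted p = 1.48e-16). Tubb3, a neuronal tubulin and a reported SoxC target, was lower (-1.54 ± 0.53 SE, edgeR adjusted p = 0.0100), at 0.828 CPM in Embryo and 1.69 CPM in WT on average. Of 11 other Sox genes tested, 6 were higher and 3 lower. Sox5 averaged 56.5 ± 16.3 CPM in Embryo and 0.0602 ± 0.101 CPM in WT (edgeR adjusted p = 1.64e-16), whereas Sox15 averaged 1.06 ± 0.450 CPM in Embryo and 16.7 ± 1.26 CPM in WT (log2 fold -4.48 ± 0.38 SE, edgeR adjusted p = 1.33e-13). Of 10 fetal genes tested, all were higher, among them Igf2 at 2371 CPM in Embryo and 0.647 CPM in WT, Igf2bp1 at 239 CPM in Embryo and 0.116 CPM in WT, and Shh at 182 CPM in Embryo and 0.0381 CPM in WT. Col1a1 averaged 74.2 CPM in Embryo and 2.76 CPM in WT, and neural and Schwann cell markers summed to 10.8 and 13.7 CPM in Embryo and 0.471 to 3.00 CPM in WT. The Embryo libraries also differed from each other in intestinal genes. Cdx2 held 0.183 CPM in one and 41.9 CPM in the other, and Vil1 6.78 and 81.4 CPM. In WT, Cdx2 averaged 0.0178 CPM and Vil1 0.600 CPM. Mesenchymal and neural cells also express SoxC genes, and the part of such cells, or of intestinal cells, in these values was not tested.

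By CPM from library totals, SmoM2 and Embryo libraries overlapped in Sox4 and not in Sox11 or Sox12. On that scale the median log2 fold of SmoM2 over Embryo across all genes was -0.43. The overlap was not examined with TMM scaling, and the share of all genes without overlap was not counted. Sox4 was not told apart by the fit of all libraries (log2 fold 0.55 ± 0.25 SE for SmoM2 over Embryo, edgeR adjusted p = 0.0549; 57% of genes passed, 26.6% higher and 30.4% lower), though a fit of these 2 groups alone called it higher in SmoM2 (0.59, edgeR adjusted p = 0.0178). Sox12 was lower in SmoM2 (-2.19 ± 0.30 SE, edgeR adjusted p = 4.79e-08), and Sox11 had 1 count in SmoM2 against 12103 in Embryo. The embryo-to-SmoM2 ratio of Sox11 by CPM was 34520, with an exact 95% counting interval from 6194 upward. Of the 10 reported targets, 1 was higher and 7 were lower in SmoM2 than in Embryo, with a median log2 fold of -1.55 beside -0.07 over all genes.

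Across the squamocolumnar junction Sox4 was higher on the columnar side. Junction columnar libraries held 157, 164, 136 and 144 CPM, against 52.0, 45.8 and 47.9 CPM in Junction squamous libraries, with no overlap (log2 fold 1.32 ± 0.10 SE, edgeR adjusted p = 2.67e-07). Most genes differed across the junction, with 39.2% higher and 35.2% lower. Sox11 was lower in columnar cells by -0.98 ± 0.53 on the log2 scale without passing (SE, edgeR adjusted p = 0.114), and passed without Junction squamous replicate 2 (edgeR adjusted p = 0.0281). Sox12 leaned higher in columnar cells, at 2.00, 3.40, 3.50 and 1.45 CPM against 1.25, 1.54 and 0.855 CPM in squamous cells (0.76 ± 0.42 SE, edgeR adjusted p = 0.123). Of 10 reported targets, 5 were higher and 4 lower in columnar cells. Beside the 39.2% and 35.2% of all genes, these counts do not set the list apart. Sema3c was higher (2.92 ± 0.15 SE, edgeR adjusted p = 1.01e-08) and Fscn1 lower (-7.94 ± 0.17 SE, edgeR adjusted p = 3.83e-11). Dcx, a microtubule protein of migrating neurons, averaged 14.9 CPM in columnar and 0 in squamous libraries. Sox6 was lower in columnar cells (-7.43 ± 0.16 SE, edgeR adjusted p = 4.54e-11) and Sox13 higher (1.96 ± 0.18 SE, edgeR adjusted p = 1.32e-06). The enteroendocrine and tuft markers given above were at 2.92 to 4.70 and 4.56 to 6.89 CPM in sum in Junction squamous, and their part in the Sox4 difference was not tested.

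Among the epithelia outside the SmoM2 oesophagus, Sox11 was higher in Junction squamous than in WT, at 36 counts against 1 (edgeR adjusted p = 2.28e-07; 16.2% of genes were higher), a CPM ratio of 96.4 with an exact 95% counting interval from 16.2 to 3914, whereas Sox4 (0.25 ± 0.22 SE, edgeR adjusted p = 0.404) and Sox12 (-0.95 ± 0.40 SE, edgeR adjusted p = 0.0676) did not pass. In Junction columnar, Sox4 (1.60 ± 0.29 SE, edgeR adjusted p = 2.13e-05) and Sox11, at 25 counts against 1, a CPM ratio of 12.2 with an exact counting interval from 1.99 to 500 (edgeR adjusted p = 0.0336; lost under DESeq2 and without Junction columnar replicate 2 or either stomach library), were higher than in stomach, where 18.5% of genes were higher. All the tuft markers were higher there too, from Avil (log2 fold 1.67) to Trpm5 (6.91), and their part in these differences was not tested. K8YFP+ cells held less Sox4 than Junction columnar (-0.69 ± 0.24 SE, edgeR adjusted p = 0.0112; 33.4% of genes were lower), which no longer passed without K8YFP+ replicate 2 (-0.42, edgeR adjusted p = 0.153). They held more than stomach (0.91 ± 0.29 SE, edgeR adjusted p = 0.00865; 25.1% of genes were higher), with 1 K8YFP+ library inside the stomach range and the call lost without K8YFP+ replicate 1 or stomach replicate 2, and more than gut (1.95 ± 0.33 SE, edgeR adjusted p = 2.79e-06; 24.9% of genes were higher). Gut held less Sox4 than stomach (-1.04 ± 0.35 SE, edgeR adjusted p = 0.0186; 15.4% of genes were lower), a call lost without gut replicate 1 or 2 or stomach replicate 1.

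The gene most like a SoxC member in its means over the 14 groups was never another member. By Pearson correlation of log2(mean CPM + 1) among 12493 named coding genes of at least 5 CPM in some group, the closest to Sox4 were Cuedc2 (0.942), Pcdhb16 (0.941), Mapk7 (0.936), Pald1 (0.932) and Col8a1 (0.930). Sox4 correlated with Sox12 at 0.679 and with Sox11 at 0.375. Sox11 was followed by Adamts18 (0.994), Lama1 (0.992), Jph4 (0.991), Nepn (0.991) and Pabpc4l (0.989), all genes with 1 high group, so that the value rests on Embryo. Sox12 was followed by Smarcc1 (0.939), B4galt2 (0.930), Cul7 (0.930), Pym1 (0.927) and Nynrin (0.924). These are descriptions over 14 group means, taken over libraries of unequal number and depth.

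Since Sox4 had a larger fold than Sox12 in SmoM2 against WT, its promoter is shown, with the CCAAT box, a common promoter motif, in capitals on either strand. The window is the 250 bases before the RefSeq start in GRCm38.p6, at chr13:28953700-28953949 on the minus strand.
Sox4: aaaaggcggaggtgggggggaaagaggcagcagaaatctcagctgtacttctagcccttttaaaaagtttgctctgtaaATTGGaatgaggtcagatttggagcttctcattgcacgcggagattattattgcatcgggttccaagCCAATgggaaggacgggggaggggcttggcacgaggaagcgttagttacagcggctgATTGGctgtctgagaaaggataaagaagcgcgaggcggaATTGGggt
CCAAT or its reverse complement ATTGG was found at 4 places here, at 1 place in the Sox11 window and at 1 in the Sox12 window. It was found at least once in 33.8% of 32851 such windows, and the share of windows with 4 places was not counted. The GLI site GACCACCCA, searched on both strands, was in none of the 3 windows and in 0.225% of all, and its core CCACCC was in none of the 3 and in 28.1% of all. Base composition also differed, with 50.8% G and C in the Sox4 window, 58.0% in that of Sox11 and 74.4% in that of Sox12. Of all windows, 44.1% held less G and C than that of Sox4, 66.8% less than that of Sox11 and 95.4% less than that of Sox12. A match of letters is a description of the window only.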

How the data were processed

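Total RNA of sorted mouse cells was sequenced in 51 libraries of 14 groups, from NuGEN Ovation Solo libraries run on an Illumina NovaSeq, per the labels' protocols. The deposited file holds read counts per gene, not normalized, for 52636 genes, of which 10741 had no count. The submitters' processing notes name STAR 2.5.3a, HTSeq, edgeR and the builds GRCm38 and mm10. The strand setting is not given in the sources, nor is the annotation release, so gene positions came from GENCODE M21, which holds 52489 of the identifiers.

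Tests used edgeR 4.0.16 under R 4.3.3 (quasi-likelihood F test, TMM scaling, filterByExpr with a minimum count of 10 and a minimum total of 15, Benjamini-Hochberg adjustment over all genes tested, two-sided threshold 0.05). Each of 4 pairs was fitted on its own libraries (the junction, Sox9cKO with SmoM2, SmoM2 with WT, and the YFP sort), the time series in one fit with WT, and the rest in one fit of all 51 libraries. The procedure was checked on simulated data. Levels are CPM by library total, and CPM per kilobase of exon where genes are compared. Library totals ran from 1606571 to 12262365 counts, with the depth of a group setting the floor of 3 counts, and intervals cover counting error only.

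The members and gene lists were chosen with earlier results of these data known. Of each list, at most 3 called genes per direction, those of the smallest p, are named, and 5 genes most like each member. Libraries of K8YFP+ and K8YFP- with equal numbers, and those of the 3w gates, deviated together (residual correlations above 0.1 in every pair), which comes from the data and not from the labels. In the 7w gates 1 pair was at 0.0746. Alternatives were RLE factors, library totals, no filter, DESeq2 1.42.0, close WT pairs summed, the replicate block, other sets of libraries in the fit and each library left out. One summed list of marker genes is not reported here.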

Additional observations from a re-analysis of the deposited data

Results flagged for a closer look

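Sox4 had a gate difference in the SmoM2 time series that was larger at 7w than at 3w by 1.26 on the log2 scale, by a test of the difference itself. The values at each time are in the report.

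In 3 groups a single library stood apart for Sox11, each by 1 or 2 counts: the highest library held 0.0860 CPM in SmoM2, 0.268 CPM in 7w EpCAM-low and 0.107 CPM in WT, with the other libraries of each group at 0. The rule is built to flag about 1 in 20 groups by chance where values vary continuously, and 24 sets of libraries were examined. That rate does not hold here. Where all other libraries are at 0, any count in 1 library is flagged, so these flags say no more than the counts.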

How the results depend on the processing

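Sox4 in SmoM2 against WT kept its direction and call under every alternative run, including each library left out (2.84 to 3.08). Of 349 values of member folds under alternatives other than left-out libraries, 309 kept their direction and side of the threshold, 23 lost the call, 9 gained it and 8 changed sign. Of 411 with a library left out, 341 kept both, 38 lost the call, 9 gained it and 23 changed sign. The cause of these changes was not tested.

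For K8YFP+ against K8YFP-, Sox4 passed with library totals (-1.002), no filter (-0.76), the replicate block (-0.66) and a fit of all 14 groups (-0.73). For SmoM2 against WT, Sox12 no longer passed with no filter (0.46), DESeq2 (0.49), WT pairs summed (0.51), the replicate block (0.54) or all 14 groups (0.49), and ranged from 0.41 to 0.65 with a library left out. Sox12 passed across the junction with library totals (1.06; 0.54 to 0.97 with a library left out) and in Sox9cKO against SmoM2 with DESeq2 (0.76; 0.62 to 0.89). Sox11 across the junction ranged from -1.39 to -0.48. The Sox4 interaction did not pass in a fit of all 14 groups (1.26), and that of Sox12 ranged from -0.33 to 0.12.

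Signs changed near 0. Sox4 in 7w EpCAM-low against WT was 0.10 with library totals and 0.031 with the replicate block (-0.083 to 0.11). Sox12 in 7w EpCAM-high against WT was -0.023 with the replicate block (-0.20 to 0.14). Sox12 in K8YFP+ against Junction columnar was 0.016 with these groups alone (-0.65 to 0.56), and against stomach 0.085 with RLE factors, 0.0082 with no filter, 0.076 with DESeq2 and 0.034 with WT pairs summed (-0.55 to 0.66). With a library left out, Sox12 ranged from -0.16 to 2.67 in K8YFP+ against gut, from -0.082 to 0.32 in Junction columnar against stomach and from -2.74 to 0.19 in gut against stomach.

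Ranges with a library left out follow, first for the weaker calls. In 7w against 3w EpCAM-low, Sox4 ranged from -0.44 to -0.30 and Sox12 from 0.61 to 1.06. Against WT, Sox4 ranged from 0.29 to 0.49 in 3w EpCAM-low and Sox12 from -0.82 to -0.59 in 3w EpCAM-high. Sox4 ranged from -0.87 to -0.42 in K8YFP+ against Junction columnar and from 0.72 to 1.17 in K8YFP+ against stomach. In gut against stomach it ranged from -1.17 to -0.91. Sox11 ranged from 2.78 to 5.92 in Junction columnar against stomach. Other folds had not passed in the main fit. Of these, Sox4 ranged from 0.43 to 0.67 in SmoM2 against Embryo and Sox12 from -1.16 to -0.74 in Junction squamous against WT. Sox11 ranged from -2.95 to -1.11 in K8YFP+ against Junction columnar and had not passed either. With the replicate block, 7837 genes passed in Embryo against WT rather than 14309, and 3 other Sox genes rather than 9 (5 to 9 with a library left out). In SmoM2 against WT 5 other Sox genes passed with no filter or DESeq2 rather than 3. The replicate block changed no call in the 3w gate, and shared numbers in the other groups carry no stated pairing.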
